A study of Gallus gallus with 4 samples.

Results

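Basement membrane genes were followed through an RNA sequencing comparison of chick neural crest cells, namely COL4A5 and COL4A6, which encode collagen IV chains, LAMB1, which encodes the laminin beta 1 chain, and NID2, which encodes nidogen-2. They were taken by name, as 4 of the 212 rows of the authors' deposited table, with LAMB1 found under its protein entry name. The neural crest is a population of embryonic cells that leaves the dorsal neural tube and forms facial skeleton, peripheral neurons, glia and pigment cells. The cranial group held 2 libraries at Hamburger-Hamilton stage HH9+, from embryos given the NC1 enhancer of FoxD3, and the trunk group 2 libraries at stage HH14, from embryos given the NC2 enhancer of the same gene. In both groups the head or trunk was dissected, and viable cells positive for GFP were collected by flow cytometry, per the labels' protocols. Stage, body level and enhancer change together and cannot be told apart. The labels do not say whether the libraries of a group came from separate pools of embryos.

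A basement membrane is a thin sheet of matrix under epithelia. Laminins, which are trimers of an alpha, a beta and a gamma chain, form the first network on the cell surface. Collagen IV, a trimer of alpha chains, forms a covalently linked network beside it, and nidogens bind laminin and collagen IV and connect the networks. Neural crest cells cross the basement membrane of the neural tube when they delaminate, and later move along those of the ectoderm and the somites.

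All 4 genes were higher in cranial than in trunk cells, as was each of the 212 listed rows. That direction is therefore not particular to them. The levels in the authors' deposited table are FPKM, fragments scaled for transcript length and sequencing depth, with 1 value per group and no value per library. Read depth and the spread between libraries are therefore unknown, and no SD is given. Every row of the authors' deposited table was marked as significant, so that 100% of the listed rows carried the call that these 4 genes carried, and nothing particular to them follows from it. The authors' deposited table gives a score beside each p-value. An implied standard error (SE) was taken as the log2 fold divided by that score. It rests on the authors' error model, and the file headers do not define the score. Because each listed row was selected as significant, the 95% interval of its fold had to lie wholly on the cranial side. How far this selection enlarged the listed folds was not tested.

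The collagen IV chains had the largest folds of the 4 genes, on the values as deposited. COL4A5 encodes the alpha 5 chain, which in mammals assembles either with the alpha 3 and alpha 4 chains or with the alpha 6 chain. The authors' deposited table gave it 109 FPKM in cranial cells, against 32.1 FPKM in trunk cells. COL4A5 was 3.39-fold higher in cranial cells, a log2 fold of 1.76 with an implied SE of 0.44 and a 95% interval of 0.89 to 2.63 (authors' deposited table, q = 0.00462). COL4A6 encodes the alpha 6 chain, which in mammals is found in trimers with alpha 5. The authors' deposited table put it far lower, at 5.35 FPKM in cranial cells, against 1.95 FPKM in trunk cells. Its fold was 2.74, on the log2 scale 1.45 with an implied SE of 0.38 and a 95% interval of 0.70 to 2.20 (authors' deposited table, q = 0.00840). Alone of the 4 genes it had a low trunk level. With 1 FPKM added to both values its fold was 2.15, below the 2.28 of NID2.

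The chain encoded by LAMB1 is part of many laminin trimers, those of early embryonic basement membranes among them. In the authors' deposited table its levels were the highest of the 4 genes in both groups, with 126 FPKM in cranial cells, against 77.4 FPKM in trunk cells. The fold was the smallest of the 4 at 1.63, a log2 fold of 0.70 (authors' deposited table, q = 0.00304). Its implied SE of 0.17 was also the smallest of the 4, with a 95% interval of 0.37 to 1.04 on the log2 scale. LAMB1 therefore had the lowest q of the 4 genes beside the smallest fold.

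In deposited fold, NID2, which encodes the linker protein nidogen-2, lay between the collagen and laminin genes. The authors' deposited table gave NID2 82.7 FPKM in cranial cells, against 35.7 FPKM in trunk cells. It was 2.32-fold higher in cranial cells, a log2 fold of 1.21 with an implied SE of 0.36 and a 95% interval of 0.51 to 1.91 (authors' deposited table, q = 0.0285). That q is the highest of the 4 genes.

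**Figure D1:**
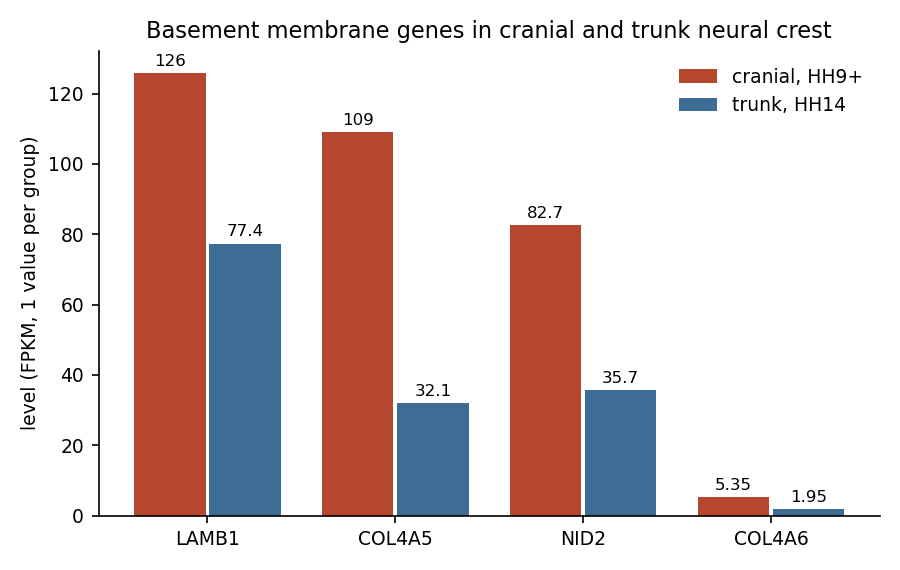
Level of each gene in FPKM (vertical axis) in cranial cells (left bar) and trunk cells (right bar), 1 deposited value per group and no error bar. LAMB1, COL4A5 and NID2 lie between 82.7 and 126 FPKM in cranial cells, COL4A6 at 5.35 FPKM, and each cranial bar is the taller of its pair.

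A q under 0.01 was given for 3 of the 4 genes, all but NID2, against 63.2% of all listed rows of the authors' deposited table. None of the 4 had a q under 0.001, which 38.7% of the rows had. The fold was at least 2 for 3 of the 4 genes, all but LAMB1, against 81.6% of the rows. It was at least 4 for 0 of the 4 genes, against 54.2% of the rows. The median log2 fold of the 4 genes was 1.33, and that of all 212 rows was 2.12. Among these listed rows, those of high level had smaller folds. The median fold was 3.16 for the 29 rows with at least 50 FPKM in cranial cells, against 4.34 for all 212 rows, those 29 included. Every row was selected for significance, which asks a larger fold of rows with a larger error. The part of this selection in the difference was not tested. Of the 4 genes, 3 are among those 29 rows.

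COL4A6 stood apart from the other 3 genes by its low level. The order of levels in cranial cells was LAMB1, COL4A5, NID2 and COL4A6, and in trunk cells LAMB1, NID2, COL4A5 and COL4A6. COL4A5 and NID2 thus change places. The COL4A5 level was 1.32 times that of NID2 in cranial cells and 0.900 times in trunk cells. With 1 value per group, whether these neighbours in the order differ beyond the spread of libraries cannot be said. COL4A5 stood at 20.4 times the COL4A6 level in cranial cells and at 16.5 times in trunk cells, so the large gap between the collagen IV chains was present in both groups. FPKM sets genes side by side per transcript length, as the authors' gene models give it.

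The ratio of COL4A5 to LAMB1 transcripts was higher in cranial cells, by an amount whose interval, given with the differences of folds, held 0 once widened for all 6 gene pairs. The COL4A5 level was 0.866 times the LAMB1 level in cranial cells and 0.415 times in trunk cells. NID2 stood at 0.657 times the LAMB1 level in cranial cells and 0.461 times in trunk cells. The summed FPKM of the 4 genes was 323 in cranial cells and 147 in trunk cells, 2.19-fold higher in cranial cells. That direction was fixed, because every listed row was higher in cranial cells. Basement membrane genes outside the list have no value and are not in the sum. COL4A5 made up 33.8% of that sum in cranial cells and 21.8% in trunk cells. LAMB1 made up 39.0% in cranial cells and 52.6% in trunk cells. The share of NID2 was 25.6% in cranial cells and 24.3% in trunk cells, and that of COL4A6 was 1.66% in cranial cells and 1.33% in trunk cells. In bulk samples, a larger share of cells that make a transcript and more of it per cell cannot be told apart.

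**Figure D2:**
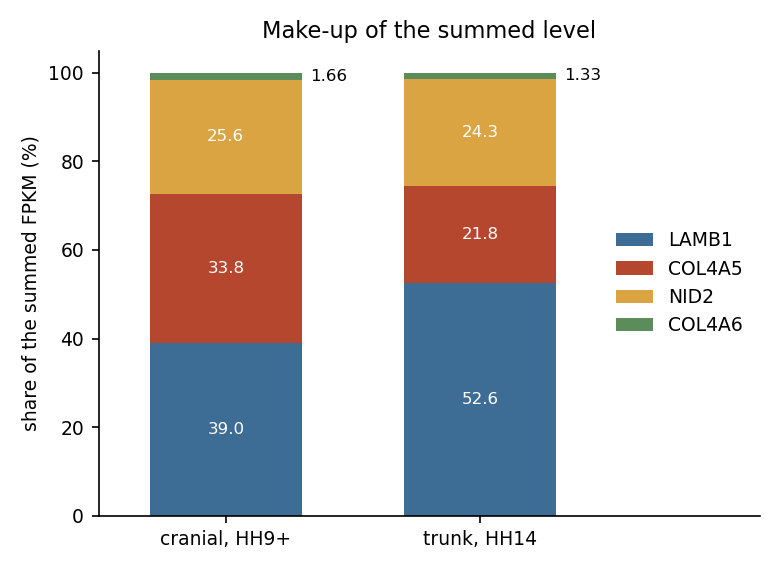
Share of each gene in the summed FPKM of the 4 genes (vertical axis, %), in cranial cells (left bar) and trunk cells (right bar). COL4A5 takes 33.8% in cranial and 21.8% in trunk cells, and LAMB1 39.0% in cranial and 52.6% in trunk cells.

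Counted as a difference in FPKM, the genes fell in another order than by fold. The difference, cranial minus trunk, was 76.8 FPKM for COL4A5, 48.5 FPKM for LAMB1, 47.0 FPKM for NID2 and 3.39 FPKM for COL4A6. LAMB1, last by fold, was second by difference, close to NID2. With 1 value per group, whether the differences of LAMB1 and NID2 are apart beyond the spread of libraries cannot be said. COL4A5 gave 43.7% of the summed difference of the 4 genes, LAMB1 27.6%, NID2 26.7% and COL4A6 1.93%.

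Of the 6 differences between the folds of these genes, the largest was that of COL4A5 and LAMB1. The log2 fold of COL4A5 exceeded that of LAMB1 by 1.06, with an implied SE of 0.48 and a 95% interval of 0.13 to 1.99. Widened for 6 comparisons by the Bonferroni rule, the interval ran from -0.19 to 2.31 and held 0. The 95% intervals of the other 5 differences held 0 without widening. For the collagen IV chains, the log2 fold of COL4A5 exceeded that of COL4A6 by 0.31, with a 95% interval of -0.84 to 1.46, which does not show that the chains changed alike. For COL4A6 and LAMB1 the difference was 0.75, with an interval of -0.07 to 1.57. The differences of COL4A5 from NID2, of NID2 from LAMB1 and of COL4A6 from NID2 were 0.55, 0.51 and 0.24. These intervals treat the errors of 2 genes as independent, although both were measured in the same libraries. The order of COL4A6 and NID2 turned round, to a difference of -0.085, with 1 FPKM added to all values.

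Set against the other rows of the authors' deposited table, LAMB1, COL4A5 and NID2 were among the rows with high levels, and LAMB1 among those with the smallest folds. By cranial level they ranked 7th, 11th and 15th of 212 rows, and COL4A6 ranked 153rd. By trunk level LAMB1 ranked 3rd, NID2 12th, COL4A5 14th and COL4A6 121st. By fold COL4A5 ranked 129th, COL4A6 149th, NID2 159th and LAMB1 200th. By difference in FPKM the ranks were 8th for COL4A5, 19th for LAMB1, 21st for NID2 and 160th for COL4A6. The fold ranks of COL4A5, NID2 and COL4A6 depend on how low rows are treated. Among the rows with at least 1 FPKM in both groups, 55.4% of the other rows had a smaller fold than COL4A5, and with 1 FPKM added to all values 62.1% of all other rows had, against 39.3% among all rows as deposited. For NID2 these shares were 35.1% and 33.2%, against 25.1% as deposited. For COL4A6 they were 41.9% and 28.9%, against 29.9%. For LAMB1 they were 8.11% and 8.53%, against 5.69% as deposited.

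Among the rows nearest in cranial level, the genes differed in where they fell. These rows spanned 66.5 to 187 FPKM for COL4A5, 70.5 to 209 FPKM for LAMB1 and 54.1 to 126 FPKM for NID2. For COL4A6 they spanned 4.57 to 6.08 FPKM. The sets of COL4A5, LAMB1 and NID2 are thus wide and overlap, and each holds the other genes of high level. Their counts are not independent of each other. Of the 20 rows nearest to COL4A5 in cranial level, 6 had a larger fold and 14 a smaller one. Of the 20 nearest to LAMB1, 18 had a larger fold and 2 a smaller one. For NID2 the counts were 14 larger and 6 smaller. COL4A6 had 17 rows with a larger fold and 3 with a smaller one, and the median fold of its 20 neighbours was 5.44. For the neighbours of COL4A5, LAMB1 and NID2 the median fold was 2.90, 3.12 and 3.01. The implied SE of LAMB1 was smaller than that of 19 of its 20 neighbours, whereas that of COL4A5 was larger than that of 12 of its 20. A row of small fold is listed as significant only if its implied SE is also small. These counts therefore follow in part from how the list was selected. COL4A5 had a larger implied SE than COL4A6, although its level was higher. These ranks describe a list selected by the authors for significance, and transcripts outside that list have no value here.

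**Figure D3:**
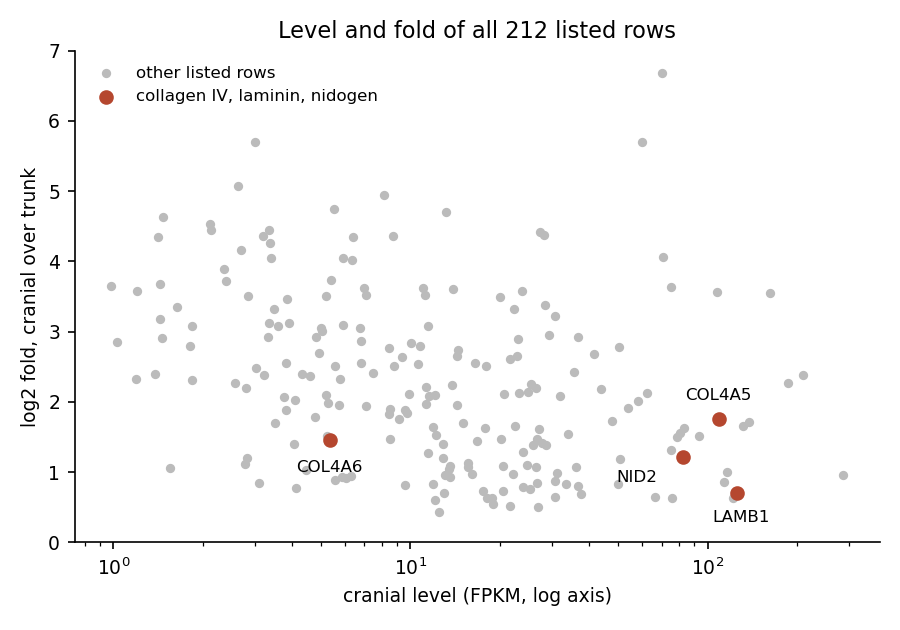
Cranial level in FPKM (horizontal log axis) against the log2 fold of cranial over trunk (vertical axis) for the 212 rows of the authors' deposited table, 1 point per row, with the 4 genes marked. LAMB1, COL4A5 and NID2 lie at the right, at log2 folds of 0.70, 1.76 and 1.21, and COL4A6 lies at 5.35 FPKM and 1.45.

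The rest of the basement membrane machinery was sought by a list of 92 genes, which includes these 4. In the gene table of assembly GRCg7b, 84 of the 92 had an entry under the same symbol. Of the 92, 6 were listed, all higher in cranial cells, as every listed row was. For scale, 131 of the 14357 protein-coding genes with a symbol in GRCg7b, or 0.912%, were matched to a listed row, but which genes the authors tested is unknown. Of the 6, 4 were chosen because they were listed, and the list was drawn with earlier results of these data known. The count therefore supports no statement about the list. Structural components and associated proteins gave 4 of 38 entries, the 4 genes above. The other collagen IV chain genes, COL4A1 to COL4A4, were not found by symbol. The laminin alpha and gamma chain genes, NID1 and the perlecan gene HSPG2 were likewise not found. Assembly and cross-linking enzymes gave 1 of 18 entries. That entry, P4HA1, encodes a catalytic subunit of collagen prolyl 4-hydroxylase, the enzyme whose products stabilise the collagen triple helix. The authors' deposited table gave P4HA1 37.5 FPKM in cranial cells, against 23.3 FPKM in trunk cells. It was 1.61-fold higher in cranial cells, a log2 fold of 0.69 with an implied SE of 0.16, close to the fold of LAMB1 (authors' deposited table, q = 0.000984).

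Receptors, integrin chains, dystroglycan and discoidin receptors among them, gave 0 of 19 entries. Remodelling enzymes and inhibitors gave 1 of 17, ADAMTS15, a secreted metalloproteinase known in mammals for cleaving the proteoglycans versican and aggrecan. The authors' deposited table gave ADAMTS15 8.75 FPKM in cranial cells, against 0.425 FPKM in trunk cells, a fold of 20.6 (q = 1.61e-11). With 1 FPKM added to both values its fold was 6.85. A gene that was not listed has no value here, and 77 rows without a symbol could not be searched, so these counts do not show that the other genes were equal between the groups.

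**Figure D4:**
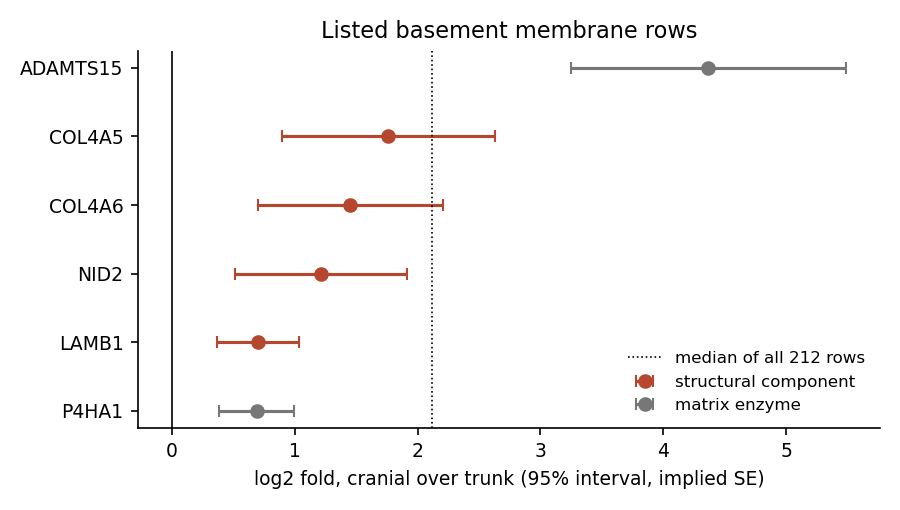
Log2 fold of cranial over trunk (horizontal axis) for the 6 listed entries of the basement membrane list, with 95% intervals from the implied SE. Selection of the rows for significance puts each interval wholly on the cranial side. Of these, 4 are structural components, and P4HA1 and ADAMTS15 are matrix enzymes. The dotted line is the median of all 212 rows, at 2.12. COL4A5, COL4A6, NID2 and LAMB1 run from 1.76 down to 0.70 and lie left of that line, P4HA1 lies beside LAMB1 at 0.69, and ADAMTS15 lies at 4.37.

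Rows like each gene were sought by distance between the log2 levels of both groups, over the 134 other rows with a symbol. The 77 rows without a symbol were left out, and some lie nearer. A row with 122 FPKM in cranial cells and 78.4 FPKM in trunk cells lies nearer to LAMB1 than any row named here. Another, with 93.5 FPKM in cranial cells and 32.8 FPKM in trunk cells, lies nearer to COL4A5 and to NID2. This likeness rests on 2 values per gene, and genes of high level had few candidates. In all, 13 rows with a symbol had at least 50 FPKM in cranial cells, 3 of the 4 genes among them. Nearest to COL4A5 were NID2 (distance 0.43), TNC, which encodes the matrix glycoprotein tenascin-C (0.47), and GFPT2, an enzyme of hexosamine synthesis (0.50). The authors' deposited table gave TNC 83.0 FPKM in cranial cells, against 26.9 FPKM in trunk cells. GFPT2 had 80.4 FPKM in cranial cells, against 27.3 FPKM in trunk cells, in the same table. NID2 lay nearest to UACA (0.27), followed by GFPT2 (0.39) and the small GTPase gene RAB2A (0.40). LAMB1 lay nearest to SSBP3 (0.33), whose product binds single-stranded DNA, and to the mitochondrial ribosomal protein gene MRPL13 (0.43), while RAB2A followed at a larger distance of 1.27. COL4A6 lay nearest to the nicotinic receptor subunit gene CHRNA4 (0.10), followed by the helicase gene HELQ (0.31) and the transporter gene ABCB9 (0.41). The 3 rows nearest to COL4A6 included neither COL4A5 nor another of the 4 genes, which follows from its far lower level.

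The collagen IV genes are neighbours on the chromosome. In the authors' deposited table COL4A5 (ENSGALG00000008141) spans chromosome 4 from 13999913 to 14063756, and COL4A6 (ENSGALG00000008266) spans chromosome 4 from 14087799 to 14224020. The gap between these intervals is 24.0 kb, and the table holds 10 pairs of rows that lie within 50 kb of each other without overlap. Of these 10 pairs, 5 have a symbol on both rows. The count includes pairs that share a row at the same gap, so not all pairs are separate loci. In human the genes for these chains lie head to head and share a promoter region, whereas the deposited table gives no strand. The gene table of assembly GRCg7b places no other protein-coding gene between them in chicken. NID2 (ENSGALG00000012394) lies on chromosome 5 from 60668333 to 60692905, and its nearest listed row is 1816 kb away. LAMB1 (ENSGALG00000007905) lies on chromosome 1 from 15859396 to 15945593, and its nearest listed row, PHTF2, is 2391 kb away. None of the 4 intervals overlaps another listed row. In GRCg7b the gene beside LAMB1 is LAMB4, another laminin beta gene, which was not listed. Whether any reads were shared between LAMB1 and LAMB4 was not tested. The build of these coordinates is not settled, because the submitters' processing notes name galGal4 while 8 rows lie on sequences named as in galGal3. No exon, intron or UTR was assigned.

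Epithelia next to the neural crest also make basement membrane, so markers of other cells were sought among the listed rows. At the share of 0.912% over all genes with a symbol, lists this short would mostly have 0 listed entries, so such a count says little. Surface ectoderm markers gave 2 of 9 entries, 8 of which are in the gene table. The marker lists were drawn with earlier results of these data known, and both entries were matched by hand translation. The count of 2 therefore supports no statement about the cells. The authors' deposited table gave CDH1, which encodes E-cadherin, 24.9 FPKM in cranial cells, against 5.65 FPKM in trunk cells, a fold of 4.40. It gave ESRP1, an epithelial splicing regulator, 2.56 FPKM in cranial cells, against 0.532 FPKM in trunk cells, a fold of 4.82. With 1 FPKM added to both values the folds were 3.89 for CDH1 and 2.33 for ESRP1, against 3.32 for COL4A5, 2.28 for NID2, 2.15 for COL4A6 and 1.62 for LAMB1. The part of such cells in these results was not tested. Which of the sorted cells made CDH1 and ESRP1, neural crest cells or others, was not tested either. Neural tube markers gave 0 of 6 entries, paraxial and lateral mesoderm 0 of 7, endothelium and blood 0 of 6, and notochord and endoderm 0 of 6. Neural crest markers, FOXD3 and SOX10 among them, gave 0 of 12 entries, so the cell identity could not be checked in either group.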

How the data were processed

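Sorted cranial and trunk neural crest cells were profiled by RNA sequencing of amplified cDNA, per the labels' protocols, with 2 libraries per group. TopHat, Cufflinks and Cuffdiff 2.1 are named in the submitters' processing notes, without order or role. The deposited table holds 1 value per group, read as FPKM because its columns are named as Cuffdiff names them. The deposited log2 fold is trunk over cranial, and for each of the 212 rows it matched the ratio of the deposited levels to within 0.0001. It was turned round here, so that a positive value means higher in cranial cells. The deposited score, p-value and q-value come from the authors' test, whose use of the libraries is not stated. For all 193 rows whose p was 1e-10 or more, a two-sided normal p computed from the score differed from the deposited p by under 1%. The implied SE was computed from that reading, chosen after the values were seen.

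Ratios, ranks, shares and intervals were computed in Python 3.11.15 with pandas 2.3.3 and scipy 1.17.1. Symbols were assigned to 135 rows, 26 of them translated by hand and 16 read from protein entry names, with the gene table of GRCg7b. The 4 genes and all lists were chosen with earlier results of these data known. Named genes are the 4, listed rows of the basement membrane and marker lists, the 3 nearest rows with a symbol, and the nearest listed neighbour on the chromosome. Sequences, and fits on values per library, were not used here.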

Additional observations from a re-analysis of the deposited data

How the results depend on the processing

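No direction between cranial and trunk cells could change, since each of the 4 genes is higher in cranial cells with any pseudocount. With 5 FPKM added to both values, the log2 fold of COL4A6 was 0.57 in place of 1.45, and the median of the 4 genes was 0.89 in place of 1.33, by construction, as a pseudocount moves low values most. With 1 FPKM added, the fold of COL4A6 was smaller than that of NID2, with a log2 difference of -0.085 in place of 0.24. The count of 4 genes past the authors' q threshold was 0 at a q under 0.001. The log2 folds of COL4A5, LAMB1 and NID2 moved by less than their implied SE under pseudocounts of 0.1, 1 and 5. The median of the 4 genes stayed between 1.21 and 1.45 when each gene was left out in turn. Of 36 alternative percentiles among the listed rows, 9 moved outside the binomial interval of the percentile given. That interval treats the listed rows as independent draws, which they are not, so it served as a yardstick and measures no error. No paired analysis was possible because each deposited value covers a whole group, and A is the single replicate letter that cranial and trunk libraries have in common. No library could be left out, and no other normalization tried, on such values. What depth limits at the low COL4A6 level is unknown.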
